A study of Mus musculus with 6 samples.

Results

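The genes described here encode the SR proteins and the heterogeneous nuclear ribonucleoproteins (hnRNPs), the main families of proteins that choose splice sites. They were taken by name, as every gene of the deposited table whose symbol begins with Srsf and a number or with Hnrnp, which gave 32 of 16403 genes, 11 of them SR proteins and 21 hnRNPs. Messenger RNA was compared between LSK cells of mice with ligature-induced periodontitis (LIP), in which a thread tied around a tooth provokes local gum inflammation, and LSK cells of unligated mice (NL, no ligature). All mice were C57BL/6, marrow was taken on day 7, and age and sex are not stated in the labels. LSK cells are the lineage-negative, Sca-1-positive, Kit-positive bone marrow fraction with the blood stem cells and early multipotent progenitors. There were 3 LIP and 3 NL libraries, and every library came from the pooled cells of 3 mice, so p-values measure the spread between pools. The comparison addresses what a distant oral inflammation does to the transcriptome of these progenitors.

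SR proteins carry an RNA recognition motif and a tail rich in arginine-serine repeats, bind enhancer sequences in exons and recruit the spliceosome, and their tails are phosphorylated by the SRPK and CLK kinases. HnRNPs coat nascent transcripts, and many of them act on silencer sequences and oppose SR proteins at the same exon, while some also set the stability or the export of mRNA. Both families hold down their own mRNA levels, often by splicing in a poison exon that sends the transcript to nonsense-mediated decay. The gene-level counts used here add productive and poison-exon transcripts together, and cannot tell them apart.

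Library totals lay between 17780853 and 18841103 counts, and 12564 genes, among them 31 of the 32 members, passed the filter on low counts. Over all tested genes 1776 (14.1%) were higher and 1984 (15.8%) lower in LIP at an adjusted p below 0.05 by edgeR's quasi-likelihood test, so 47.2% of calls were rises; this share was 67.9% with total counts alone and 89.4% on log2(TPM + 1). The cells had the mRNAs that define the sort, with Kit, called higher, at 204 TPM in LIP and 165 TPM in NL and Ly6a, which encodes Sca-1, at 75.8 TPM in LIP and 72.6 TPM in NL. By edgeR on counts the log2 fold change of Ly6a was -0.07, not called. The 9 LSK and progenitor markers summed to 1566 to 1616 TPM in LIP and 1410.3 to 1429 TPM in NL, with 3 called higher. On log2(TPM + 1) the median of all tested genes was itself 0.11 higher in LIP. The marker sums here and below are not corrected for that shift. Markers of other cells differed between the groups, and their part in the results below was not tested. Summed over the list, 10 mature neutrophil markers reached 1166 to 1227 TPM in LIP and 794 to 841 TPM in NL. Of these, 7 of 9 tested were called higher, and Ly6g had 0 to 3 counts a library. S100a8 (476 TPM in LIP and 375 TPM in NL) and S100a9 (439 TPM in LIP and 304 TPM in NL) made up most of the neutrophil sums. The sums were 1228 to 1292 TPM in LIP and 937 to 982 TPM in NL for 6 monocyte markers, all called higher. Ly6c2, at 918 TPM in LIP and 716 TPM in NL, made up most of the monocyte sums. For 8 B-cell markers the sums were 119 to 126 TPM in LIP and 87.2 to 90.7 TPM in NL, with 5 called higher. T and NK cell markers summed to 355 to 381 TPM in LIP and 287 to 310.0 TPM in NL (3 of 7 tested higher). Most of these sums came from Nkg7 alone, at 344 TPM in LIP and 283 TPM in NL. Cd3e, Cd3d, Cd3g, Cd4 and Cd8a had means of at most 4.49 TPM in LIP and 3.32 TPM in NL. Erythroid markers summed to 767 to 833 TPM in LIP and 761 to 793 TPM in NL (1 higher and 3 lower of 7). Megakaryocyte markers summed to 139.9 to 140.4 TPM in LIP and 127 to 134 TPM in NL (2 of 5 higher). Of 16 tested heat shock and sort stress genes 13 were lower in LIP, and Hspa1a, the inducible Hsp70 gene, had 1.11, 0.68 and 0.993 CPM in the LIP libraries, against 35.4, 33.6 and 36.0 CPM in the NL libraries. Whether that difference bears on the splicing factors was not tested. In bulk RNA, a shift in the cells of the sort and a shift in RNA per cell cannot be told apart.

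Most members were abundant mRNAs. In the authors' TPM, a scale per transcript length, Hnrnpa1 stood highest at 984 ± 54.8 TPM in LIP and 862 ± 8.60 TPM in NL (SD, n = 3 libraries each), followed by Hnrnpf at 783 ± 20.4 TPM in LIP and 702 ± 2.39 TPM in NL and Hnrnpk at 626 ± 8.37 TPM in LIP and 599.9 ± 11.7 TPM in NL. Hnrnpa2b1 (643 ± 26.6 TPM in LIP and 554 ± 15.7 TPM in NL) did not differ from Hnrnpk beyond these SDs in LIP. Hnrnpa1 encodes the best known of the hnRNPs that silence exons, Hnrnpf a protein that binds runs of G, and Hnrnpk a protein that binds runs of C. Among SR proteins Srsf2, a component of nuclear speckles whose human counterpart is mutated in myelodysplastic syndromes, stood highest at 478 ± 7.74 TPM in LIP and 426 ± 4.35 TPM in NL. Srsf3 (289.7 ± 5.92 TPM in LIP and 312 ± 2.94 TPM in NL), Srsf5 (315 ± 10.6 TPM in LIP and 222 ± 7.56 TPM in NL) and Srsf7 (253 ± 1.71 TPM in LIP and 288 ± 3.14 TPM in NL) came next, and their order differed between the groups, since Srsf5 was the highest of them in LIP and the lowest in NL. At the low end of the family, Srsf12, a relative of Srsf10, had between 6 and 13 counts a library and 0.32 ± 0.0794 TPM in LIP and 0.29 ± 0.123 TPM in NL, so that only a large difference could have been detected at this depth. Hnrnpd was lowest of the tested hnRNPs, at 49.6 ± 2.26 TPM in LIP and 38.5 ± 2.21 TPM in NL, followed by Hnrnph3 at 51.2 ± 1.04 TPM in LIP and 42.6 ± 4.13 TPM in NL, and in both groups these did not differ beyond their SDs. Hnrnpa1l2-ps2, a pseudogene by its symbol, at 0 counts in 4 of the libraries, did not pass the filter and was not tested. The median over both groups was 173 TPM for SR proteins and 249 TPM for tested hnRNPs, beside 21.3 TPM for all tested genes. The TPM values here serve to rank genes within a group. On log2(TPM + 1) the median of all tested genes was 0.11 higher in LIP. On counts Hnrnpa1, Hnrnpf, Hnrnpk and Srsf2 were not called, and Hnrnpk was lower in every LIP library.

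**Figure D1:**
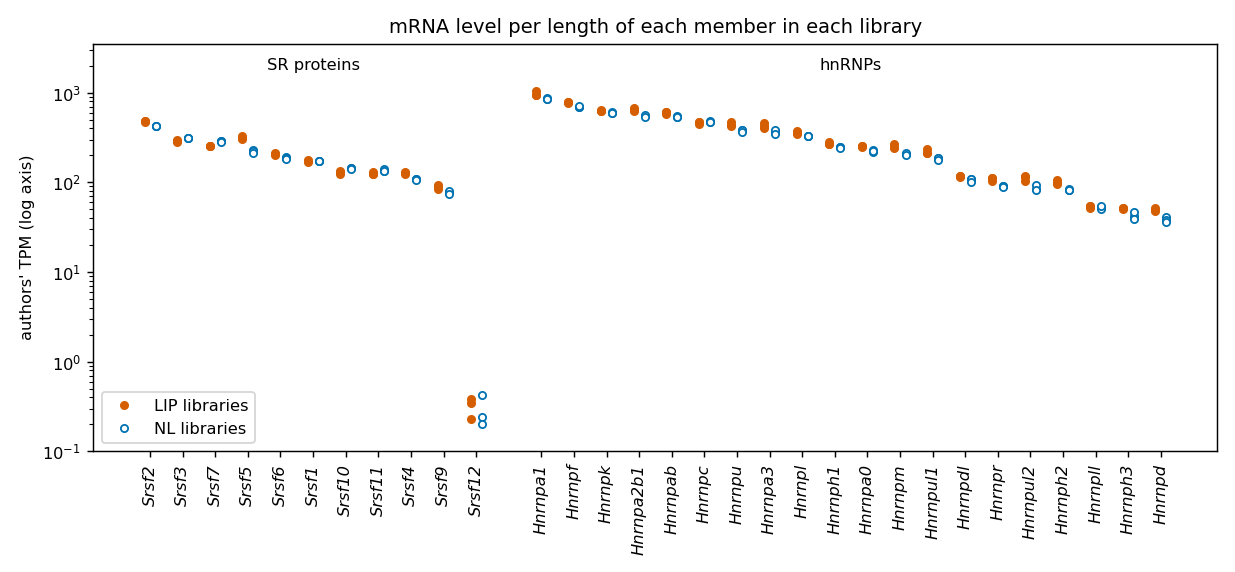
Authors' TPM (log axis) of the 31 tested members, one point for each library, with LIP libraries filled and to the left of NL libraries. Srsf12 lies far below the other members, and Hnrnpa1 is the highest of all in both groups.

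Of the 31 tested members 19 (61.3%) were called, beside 29.9% of all tested genes, and all changes were small. The median absolute log2 fold change was 0.107 for the members and 0.105 for all tested genes. Members were more abundant than most genes (medians of 173 and 249 TPM, beside 21.3 TPM). The shares called were not compared with those of equally abundant genes. Of 11 SR proteins 2 were higher in LIP (18.2%, beside 14.1% of all tested genes) and 5 lower (45.5%, beside 15.8%). Of 20 tested hnRNPs 10 were higher (50%) and 2 lower (10%). None of the 19 called members changed by 1.5-fold. The median log2 fold change, LIP over NL, was 0.07 for hnRNPs and 0.00 over all tested genes. For SR proteins the median was 0.01, which is the value of the rare Srsf12, and the mean was -0.05. That median was negative without LIP replicate 1 (-0.07), LIP replicate 2 (-0.11), NL replicate 1 (-0.11) or NL replicate 3 (-0.12). It was also negative (-0.05) with a filter of at least 1 CPM in 3 libraries, which left out Srsf12. In CPM, the counts relative to the TMM-scaled library total, the SR proteins summed to 3130, 3049 and 3033 in the LIP libraries, against 3269, 3256 and 3217 in the NL libraries. The hnRNPs summed to 9854, 10074 and 9747 CPM in LIP, against 9552, 9657 and 9368 CPM in NL. Every LIP library lay below every NL library for the SR sum and above for the hnRNP sum. In TPM both sums were higher in LIP, at 2190.1 ± 31.9 in LIP and 2074 ± 20.4 in NL for SR proteins and at 6928 ± 222 in LIP and 6172 ± 86.2 in NL for hnRNPs (SD, n = 3 libraries each), and on log2(TPM + 1) the median of all tested genes was itself 0.11. The SR sum thus had opposite directions in CPM and in TPM.

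**Figure D2:**
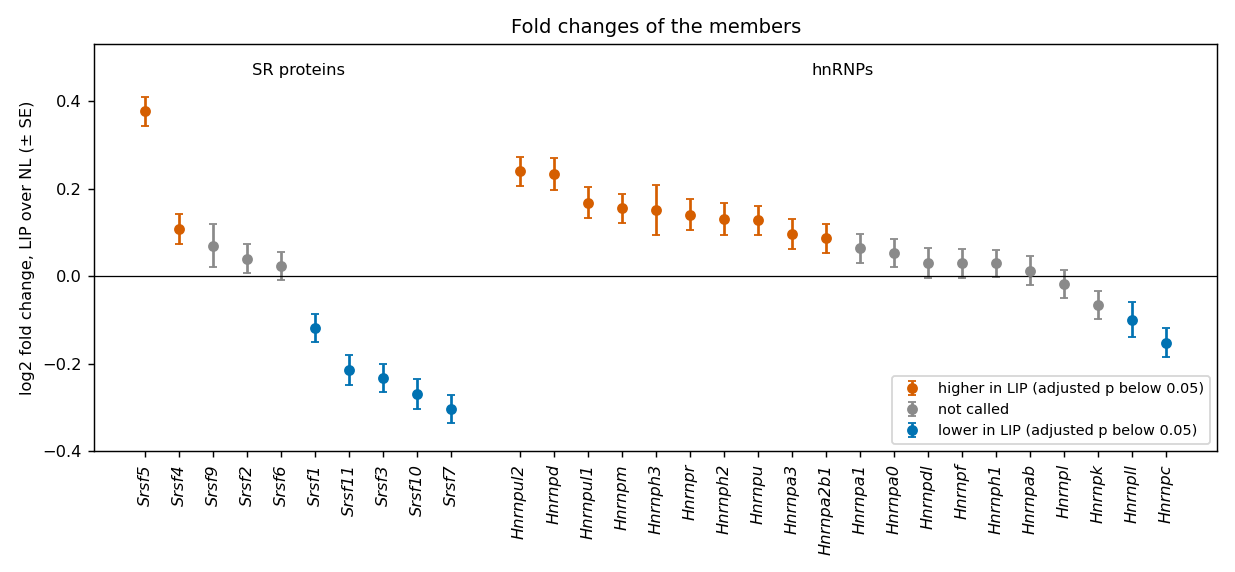
Log2 fold change of each tested member except Srsf12, LIP over NL, with its standard error from edgeR; colour gives the call at an adjusted p below 0.05. Values run from 0.38 for Srsf5 to -0.30 for Srsf7 among SR proteins and from 0.24 for Hnrnpul2 to -0.15 for Hnrnpc among hnRNPs.

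Srsf5, which encodes an SR protein known for binding exonic enhancers, had the largest change of all members (chromosome 12, 80945495 to 80950507). It had 259, 259 and 249 CPM in the LIP libraries, against 202, 199 and 191 CPM in the NL libraries. The groups did not overlap, and the log2 fold change was 0.38 ± 0.03 (SE), a rise of 29.8% with an edgeR adjusted p of 8.62e-14. Its relative Srsf4 (chromosome 4, 131873530 to 131901725), a regulator of exon choice, rose by 0.11 on the log2 scale with an edgeR adjusted p of 0.014, averaging 161 ± 2.50 CPM in LIP and 149 ± 2.06 CPM in NL (SD, n = 3 libraries each). The Srsf4 call was lost without NL replicate 3 and with an offset for transcript length and GC content. Srsf6, the closest relative of these genes, stood at 0.02 ± 0.03 (adjusted p = 0.641 by edgeR) and its groups overlapped.

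Srsf7 and Srsf3, close relatives that shuttle between nucleus and cytoplasm and hand mRNA to the export receptor, both fell. Srsf7 (chromosome 17, 80200080 to 80207369) had 344, 337 and 342 CPM in the LIP libraries, against 422, 423 and 416 CPM in the NL libraries. Its log2 fold change was -0.30 ± 0.03 (SE), with an edgeR adjusted p of 1.75e-11. Srsf3 (chromosome 17, 29032660 to 29043372) had 419, 397 and 399 CPM in the LIP libraries, against 473, 475 and 481 CPM in the NL libraries, a log2 fold change of -0.23 ± 0.03 (SE) with an edgeR adjusted p of 5.03e-08. In both genes every LIP library lay below every NL library, and both calls held in all 19 alternative analyses.

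Srsf10, an SR protein that turns into a general splicing repressor when it is dephosphorylated, as in heat shock, had the largest fall after Srsf7 (chromosome 4, 135855752 to 135869908). It had 216, 214 and 201 CPM in the LIP libraries, against 255, 258 and 247 CPM in the NL libraries, a log2 fold change of -0.27 ± 0.03 (SE) with an edgeR adjusted p of 3.61e-09. Srsf11 (chromosome 3, 158010915 to 158036667), which encodes a nuclear protein with an arginine-serine domain, had 205, 206 and 199.5 CPM in the LIP libraries, against 246, 235 and 228 CPM in the NL libraries. It fell by 0.21 on the log2 scale, with an edgeR adjusted p of 9.41e-07. Neither gene's groups overlapped, and both calls held in all 19 alternative analyses. Srsf1 (chromosome 11, 88046499 to 88053757), the founding member of the family and an oncoprotein when overexpressed, had 517, 522 and 508 CPM in the LIP libraries, against 565, 558 and 556 CPM in the NL libraries. Its log2 fold change was -0.12 ± 0.03 (SE), with an edgeR adjusted p of 0.00306 and no overlap between groups. This call depended on the scaling: the log2 fold change was -0.07 under total counts and -0.06 under the offset for length and GC, neither of them called, and 0.0076 on log2(TPM + 1).

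The SR proteins that were not called were Srsf2, Srsf6, Srsf9 and Srsf12. Srsf2 stood at 0.04 ± 0.03 (SE), Srsf9, a close relative of Srsf1, at 0.07 ± 0.05 and Srsf12 at 0.01 ± 0.42, and all their groups overlapped. Srsf9 was called higher with the length offset, with the length and GC offset and on log2(TPM + 1), Srsf2 with total counts alone and on log2(TPM + 1), and Srsf6 on log2(TPM + 1).

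**Figure D3:**
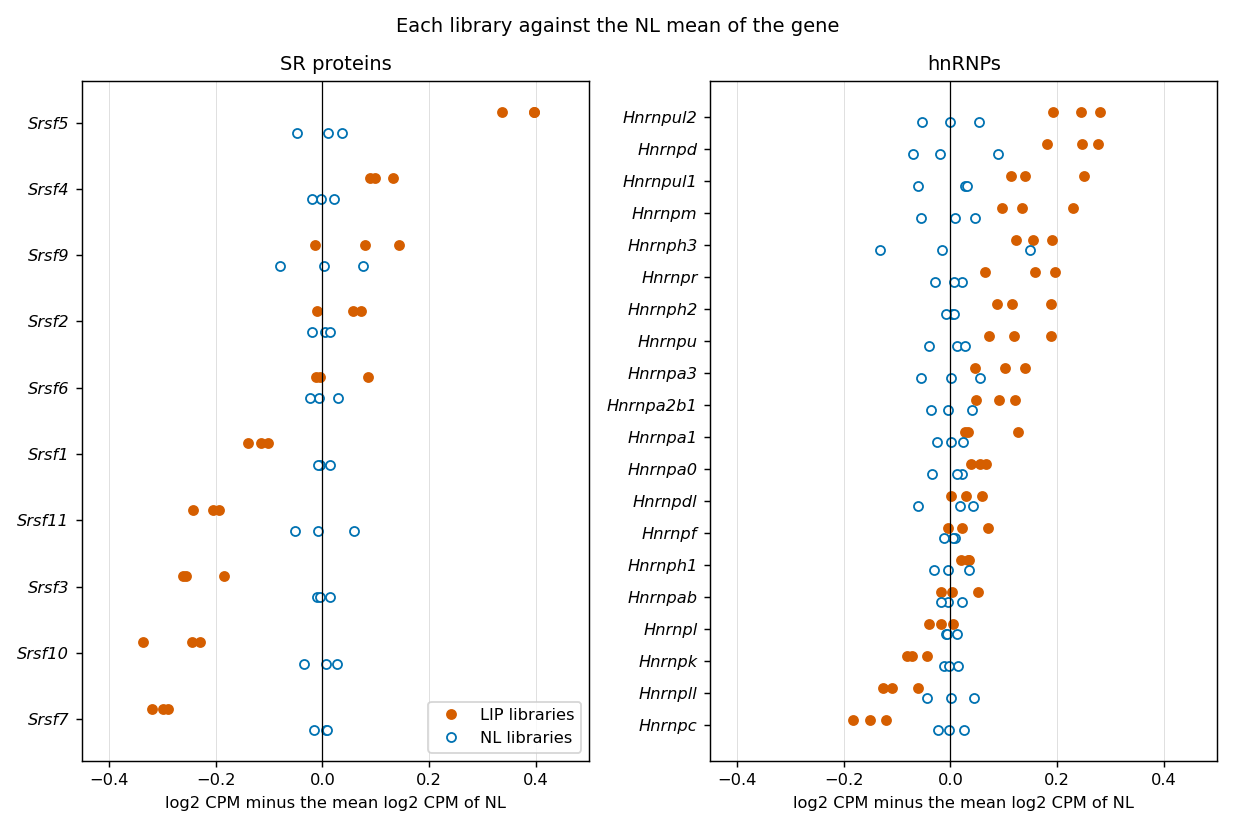
Log2 CPM of each library minus the mean log2 CPM of the 3 NL libraries of the same gene, for the tested members except Srsf12, whose 6 to 13 counts scatter widely; LIP libraries are filled and drawn above NL libraries. The 3 LIP points of Srsf5 lie to the right of all NL points, those of Srsf1, Srsf3, Srsf7, Srsf10 and Srsf11 to the left, and most hnRNPs have LIP points to the right.

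Among hnRNPs, Hnrnpul2 rose most, and its relatives Hnrnpul1 and Hnrnpu rose as well. Hnrnpul2 (chromosome 19, 8819401 to 8834143), whose product is known from the repair of DNA breaks, had 259, 276 and 269 CPM in the LIP libraries, against 227, 236 and 219 CPM in the NL libraries. Its log2 fold change was 0.24 ± 0.03 (SE), a rise of 18.0% with an edgeR adjusted p of 7.44e-08. Hnrnpul1 (chromosome 7, 25721161 to 25756268), its closest relative, had 374, 411 and 381 CPM in the LIP libraries, against 353, 354 and 332 CPM in the NL libraries, a log2 fold change of 0.17 ± 0.03 (SE) with an edgeR adjusted p of 1.29e-04. Hnrnpu (chromosome 1, 178321108 to 178338891), a nuclear scaffold protein that binds chromatin and RNA, was the most abundant of the group with 979, 1027 and 948 CPM in the LIP libraries, against 909, 919 and 877 CPM in the NL libraries. Its log2 fold change was 0.13 ± 0.03 (SE), with an edgeR adjusted p of 0.00296. In these 3 genes no LIP library fell among the NL libraries, and their calls held in all 19 alternative analyses. Hnrnpu had estimated counts that were not whole, and its span overlaps that of Cox20, so its counts are less certain. Of the other called members, Hnrnpd, Srsf4, Hnrnph3 and Hnrnpll also have spans that overlap other genes.

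Hnrnpd, whose product binds AU-rich elements and speeds the decay of cytokine and cell-cycle mRNAs, rose by a similar amount (chromosome 5, 99955935 to 99979130). It had 196, 200.3 and 187 CPM in the LIP libraries, against 176, 163 and 158 CPM in the NL libraries, a log2 fold change of 0.23 ± 0.04 (SE) with an edgeR adjusted p of 1.17e-06. Hnrnpdl, its nearest relative, stood at 0.03 ± 0.03 (adjusted p = 0.561 by edgeR), with overlapping groups. Hnrnpm (chromosome 17, 33646233 to 33685458), a regulator of splicing, had 322, 353 and 330.3 CPM in the LIP libraries, against 303, 311 and 289.9 CPM in the NL libraries, and Hnrnpr (chromosome 4, 136310942 to 136345981), a relative of Syncrip, had 183, 178 and 167 CPM in the LIP libraries, against 162, 160.4 and 156 CPM in the NL libraries. The Hnrnpm log2 fold change was 0.15 ± 0.03 (SE) and that of Hnrnpr 0.14 ± 0.04, with edgeR adjusted p of 3.43e-04 and 0.00162. No LIP value of Hnrnpd, Hnrnpm or Hnrnpr fell among the NL values.

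The 4 called members of the G-run binding group and the A/B group lost their calls without LIP replicate 2. Hnrnph2 (chromosome X, 134601179 to 134607060) had 128, 137 and 130.3 CPM in the LIP libraries, against 121, 121 and 119.6 CPM in the NL libraries, without overlap, and a log2 fold change of 0.13 ± 0.04 (SE) with an edgeR adjusted p of 0.00444. Hnrnph3, at a lower level and without whole counts, rose by 0.15 with overlapping groups, and lost its call in 7 of 19 alternative analyses, 4 of which left out LIP replicate 1, LIP replicate 2, NL replicate 1 or NL replicate 3. Hnrnph1 stood at 0.03 ± 0.03 and Hnrnpf at 0.03 ± 0.03 (adjusted p of 0.537 and 0.544 by edgeR). With the length and GC offset Hnrnph1 was called higher, at 0.18. Hnrnpf had 1001, 968 and 951 CPM in the LIP libraries, against 945, 959 and 956 CPM in the NL libraries, with overlapping groups. In the A/B group, which binds exonic silencers, Hnrnpa3 rose by 0.10 and Hnrnpa2b1 by 0.09 on the log2 scale, with edgeR adjusted p of 0.0282 and 0.0436. The groups of Hnrnpa3 overlapped, and those of Hnrnpa2b1 did not. Both calls were lost without LIP replicate 2, LIP replicate 3, NL replicate 1 or NL replicate 3. Hnrnpa1 had 913, 974 and 909 CPM in the LIP libraries, against 877, 907 and 893 CPM in the NL libraries. All its LIP libraries lay above its NL libraries, by a narrow margin, and the log2 fold change of 0.06 ± 0.03 (SE) was not called (adjusted p = 0.157 by edgeR), while it was called higher under either offset, under total counts and on log2(TPM + 1). Hnrnpa0 stood at 0.05 ± 0.03 and Hnrnpab at 0.01 ± 0.03.

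The hnRNPs that fell were Hnrnpc and Hnrnpll. Hnrnpc (chromosome 14, 52073377 to 52104039), whose product binds runs of U on nascent transcripts and blocks cryptic exons, had 501, 490.4 and 479 CPM in the LIP libraries, against 543, 554 and 536 CPM in the NL libraries. Its log2 fold change was -0.15 ± 0.03 (SE), with an edgeR adjusted p of 1.87e-04 and no overlap between groups, and the call was lost on log2(TPM + 1) only (-0.04). Hnrnpll, which silences exons of the CD45 gene in T cells, stood at -0.10 ± 0.04 with an edgeR adjusted p of 0.0474, and 15 of 19 alternative analyses did not call it lower, among them those without LIP replicate 2, LIP replicate 3, NL replicate 1 or NL replicate 3; its counts were not whole. Hnrnpl, a relative that binds CA repeats, stood at -0.02 ± 0.03 (adjusted p = 0.714 by edgeR). Hnrnpk had 861, 844 and 839 CPM in the LIP libraries, against 897, 879.9 and 887 CPM in the NL libraries. All its LIP libraries lay below its NL libraries, but the log2 fold change of -0.07 ± 0.03 (SE) was not called (adjusted p = 0.122 by edgeR).

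Counting separation in place of calls, the lowest LIP library exceeded the highest NL library in 2 of 11 SR proteins and 10 of 20 tested hnRNPs, beside 19.9% of all tested genes, and the reverse held in 5 SR proteins and 3 hnRNPs, beside 21.0%. The 10 hnRNPs separated upward included the uncalled Hnrnpa0 and Hnrnpa1, and not the called Hnrnpa3 and Hnrnph3. In 8 of the 10 hnRNPs called higher, LIP replicate 2 was the highest LIP library. Without that library 6 of the 10 calls were left, those of Hnrnpd, Hnrnpm, Hnrnpr, Hnrnpu, Hnrnpul1 and Hnrnpul2. The 5 SR falls were called without any 1 of the 6 libraries.

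Other properties of the members were taken from the mouse annotation and were not used to choose them. In GENCODE M21, 9 of 11 SR genes (81.8%) and 10 of 20 tested hnRNP genes (50%) had at least 1 annotated transcript of the nonsense-mediated decay type, beside 29.0% of all tested genes with a match. Retained-intron transcripts were annotated for 8 SR genes (72.7%) and 14 hnRNP genes (70%), beside 59.1%. The SR and hnRNP genes had medians of 7 and 8 annotated transcripts, beside 5 for all tested genes, and whether these shares follow the number of transcripts listed was not tested. GC content of the longest transcript had a median of 42.8% in SR genes and 43.9% in hnRNP genes, beside 49.7% in all tested genes. Among the members called, Srsf10, Hnrnpc, Hnrnph2, Hnrnpm, Hnrnpul1, Hnrnpul2 and Hnrnpa3 had no annotated transcript of the decay type.

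Promoter sequence is shown for 1 member of each family, Srsf5 as the largest SR rise and Hnrnpr as the largest called hnRNP rise with a window outside its span and free of protein-coding exons. RefSeq (GRCm38.p6) gives windows of 250 bases before transcript starts, which can lie inside the span of the gene. The bases before the span and outside protein-coding exons of GENCODE M21 are printed 5′ to 3′ on the strand of the gene, with motif matches on either strand in capitals.
Srsf5, chr12:80945249-80945494, + strand: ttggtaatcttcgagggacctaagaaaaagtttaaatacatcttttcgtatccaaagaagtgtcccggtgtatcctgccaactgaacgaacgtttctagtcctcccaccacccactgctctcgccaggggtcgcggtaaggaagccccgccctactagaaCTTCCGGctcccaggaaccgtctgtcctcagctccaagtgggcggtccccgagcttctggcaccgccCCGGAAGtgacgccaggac
Hnrnpr, chr4:136310692-136310941, + strand: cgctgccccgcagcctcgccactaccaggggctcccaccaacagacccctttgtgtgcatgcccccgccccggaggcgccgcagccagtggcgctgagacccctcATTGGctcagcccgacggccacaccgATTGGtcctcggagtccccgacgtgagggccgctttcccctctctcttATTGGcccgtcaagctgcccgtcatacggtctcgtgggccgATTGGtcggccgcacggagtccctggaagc

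The capitals mark CCGGAAG, the core bound by ETS factors, in Srsf5, and CCAAT, the box bound by NF-Y, in Hnrnpr. Both strands were searched, and RefSeq promoter windows were found for 29 of the 31 tested members. Of their 41 windows 33 touched the RefSeq span of the gene and 21 lay wholly inside it. CCGGAAG was in 6 of 14 SR windows (42.9%) and 3 of 27 hnRNP windows (11.1%), beside 6.91% of all 32851 windows, and the 6 SR windows belong to 4 genes, Srsf4, Srsf5, Srsf7 and Srsf11. Srsf5, which rose, and Srsf7, which fell, both held it. In Srsf7 it lay outside the longest stretch (90 bases) that was free of the gene span and of protein-coding exons. CCAAT was in 17 of 27 hnRNP windows (63.0%) and 3 of 14 SR windows (21.4%), beside 33.8% of all windows. The 27 hnRNP windows belong to 18 genes. Some windows with CCAAT overlap others of the same gene, as in Hnrnpa2b1 and Hnrnph1, and are not independent. The inverted heat shock repeat GAANNTTC was in 1 SR window and 3 hnRNP windows, beside 6.69% of all windows, and TATAAA in 2 SR windows and 1 hnRNP window, beside 12.4%. The NRF1 motif was in 1 SR window and 0 hnRNP windows, beside 0.782%. E-boxes were in 0 SR windows and 3 hnRNP windows, beside 6.02% of all windows. The member windows were rich in GC, with medians of 68.2% in SR and 68.0% in hnRNP windows, beside 52.4% in all windows. All windows came from 27025 genes, whether tested here or not. Motifs were not counted against windows of equal GC or against those of tested genes alone.

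Genes that act with the SR proteins were counted from lists. Of 10 tested SR kinases and phosphatases 4 fell (40%, beside 15.8% of all tested genes) and 1 rose (10%, beside 14.1%), with a median log2 fold change of -0.05. Clk1, a nuclear kinase of SR proteins whose own splicing responds to heat and stress, had 141, 134 and 128 CPM in the LIP libraries, against 170.2, 167 and 166 CPM in the NL libraries. Its log2 fold change was -0.32 ± 0.04 (SE), with an edgeR adjusted p of 2.13e-10 and no overlap between groups. Clk4, chosen after its value was seen, fell by 0.16 (adjusted p = 0.0134 by edgeR) and lost its call in 7 of 19 alternative analyses, including those without NL replicate 2 or NL replicate 3. The phosphatase catalytic genes Ppp2ca and Ppp1ca both fell by 0.13, while the cytoplasmic SR kinase gene Srpk2 rose by 0.16. On log2(TPM + 1) neither phosphatase was called, and Ppp1ca was not called with the length offset either. Of 22 SR-related and speckle genes 6 rose (27.3%) and 7 fell (31.8%), with a median of 0.02. Without NL replicate 3 there were 3 rises and 8 falls. Total counts alone gave 9 rises and 5 falls, and the length and GC offset 3 rises and 4 falls. Tra2b and Tra2a, the mammalian counterparts of the fly sex-determination splicing factor transformer-2, were the largest falls. Tra2b had 334, 336 and 312 CPM in the LIP libraries, against 429, 439 and 436 CPM in the NL libraries, a log2 fold change of -0.41 ± 0.03 (SE) with an edgeR adjusted p of 1.80e-15. Tra2a fell by 0.40 and Luc7l, a U1-associated splicing factor gene, by 0.26, while Srrm1, an SR-related coactivator gene, rose by 0.22. Among 38 other splicing regulators 9 rose (23.7%) and 8 fell (21.1%), and the median was -0.01. Rbm39, a spliceosome-associated protein with an arginine-serine domain, fell by 0.33, Fubp1 by 0.25 and Zranb2 by 0.20, with edgeR adjusted p of 3.36e-12, 1.77e-08 and 2.93e-05. The split of that list depended on the scaling, with 14 higher and 3 lower on total counts alone, 8 higher and 12 lower with the length offset, and 15 higher and 7 lower with the length and GC offset, and 4 fell without NL replicate 1. On log2(TPM + 1) the calls were 3 higher and 1 lower among kinases and phosphatases, 11 higher and 4 lower among SR-related genes and 19 higher and 2 lower among other regulators.

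**Figure D4:**
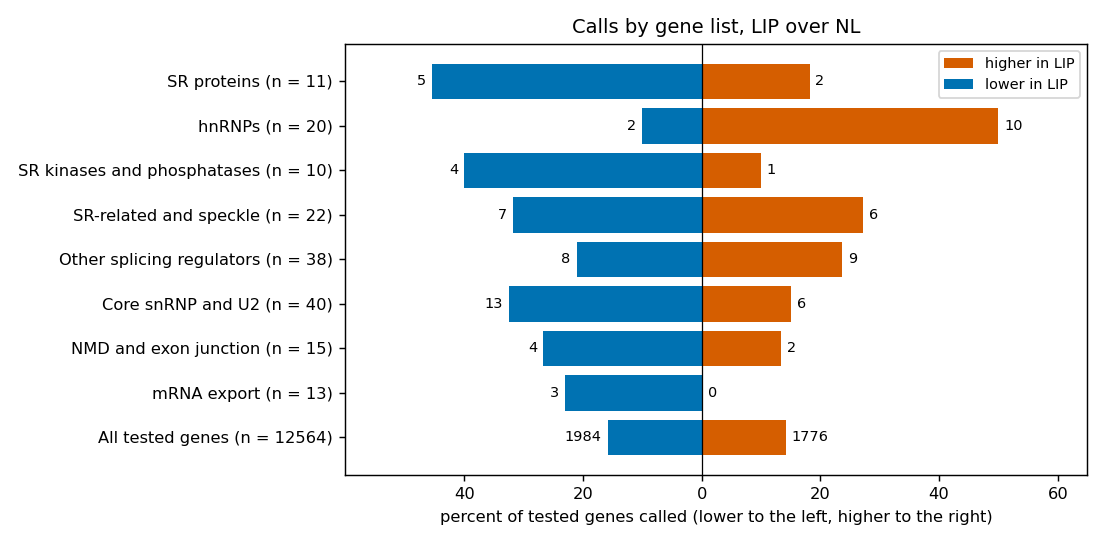
Percent of tested genes called lower (bars to the left) and higher (bars to the right) in LIP for each gene list, with the number of genes at the bar's end and all 12564 tested genes in the bottom row. SR proteins reach 45.5% lower and hnRNPs 50% higher, beside 15.8% and 14.1% of all tested genes, which were not matched for abundance.

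Total counts alone and log2(TPM + 1) moved every tested member upward from its TMM value. With total counts alone the hnRNP median was 0.12, and on log2(TPM + 1) it was 0.20, where the median of all tested genes was 0.11. On that scale 5 SR proteins were called higher and 4 lower, and 17 hnRNPs were called higher. The 4 SR proteins still lower were Srsf3, Srsf7, Srsf10 and Srsf11, at -0.11, -0.19, -0.13 and -0.12 in log2(TPM + 1). Srsf5 stood at 0.50 on that scale and at 0.52 with the length and GC offset. With that offset the hnRNP median was 0.13.

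**Figure D5:**
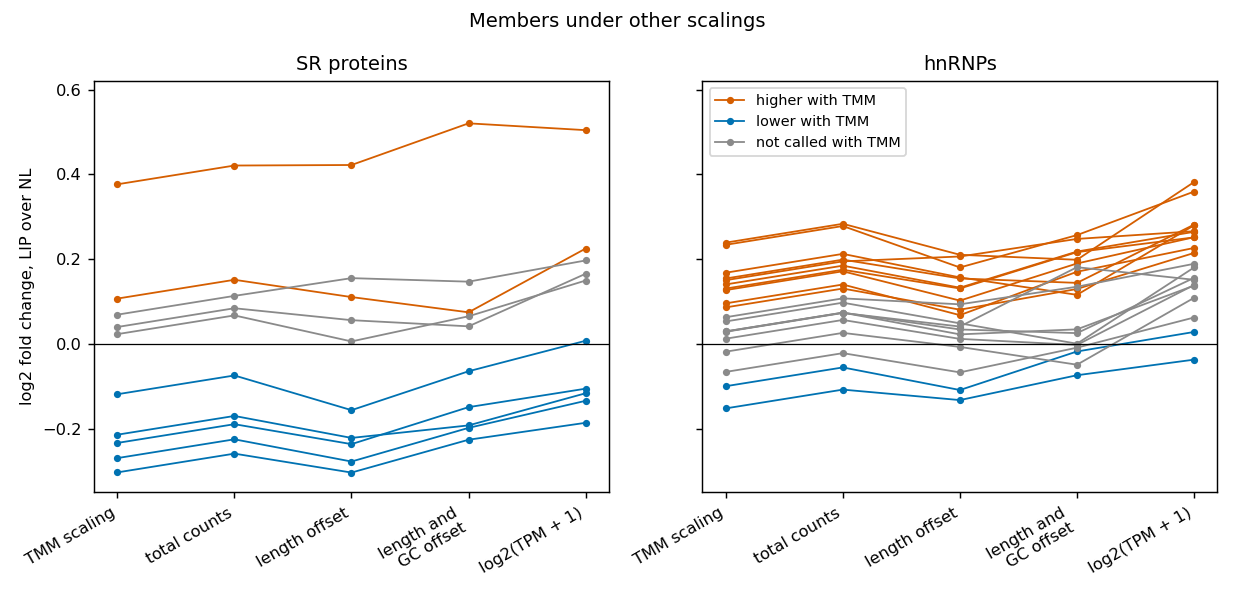
Log2 fold change, LIP over NL, of each tested member except Srsf12 under TMM scaling, total counts alone, the transcript length offset, the length and GC offset, and log2(TPM + 1), with 1 line for each gene coloured by its call under TMM scaling. Lines rise together at total counts and at log2(TPM + 1). Srsf3, Srsf7, Srsf10, Srsf11 and Hnrnpc stay below 0 in all the settings shown.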

How the data were processed

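Bulk RNA was measured in 6 LSK libraries. Per the labels' protocols, Trizol RNA went into polyA-selected libraries, read on BGISEQ as pairs of 100 bp. The authors deposited, for 16403 genes, estimated counts (expected counts, with decimals for part of the genes), FPKM and TPM, named so per the file headers. STAR, HTSeq and GRCm38 are named per the submitters' processing notes; the counting tool behind these values and the strand setting are not given in the sources used here. Without the strand, reads of overlapping genes cannot be told apart, which touches 11 of the 31 tested members, and 6 tested members lacked whole counts. The 6 columns of group means by the authors were not used. Counts were rounded, filtered with filterByExpr (12564 genes tested, 3839 not), TMM-scaled and tested with edgeR 4.0.16 under R 4.3.3 (quasi-likelihood, robust, group as the only term), with Benjamini-Hochberg adjustment over all tested genes; calls needed an adjusted p under 0.05. The log2 fold change divides LIP by NL, and its standard error was derived from the test statistic. The floor of 3 counts was 0.159 to 0.169 CPM, for counting error only. Replicates of a group differed by more than counting noise (chi-square per degree of freedom 1.86 to 2.78). The fits were tested on simulated data. Alternatives were DESeq2 1.42.0, limma-voom and limma 3.58.1 on log2(TPM + 1), other scaling factors, filters and thresholds, a replicate block, non-robust estimation, an offset for effective transcript length (from the deposited FPKM and counts; lowess, span 0.3), and leaving out each library; adding a GC trend to that offset (98.5% of tested genes had a GC value) was decided after the data were seen. Both trends were fitted outside ribosomal protein and respiratory chain genes. Members and gene lists were chosen with earlier results of these data known, so counts over them are descriptions, with no list test. Values by library are given for the 14 called members with the smallest p and the 3 most abundant uncalled ones, and up to 4 genes with the smallest p are named from each list, except 1 that is not reported here. Positions and promoter sequences are from RefSeq on GRCm38.p6, matched by gene identifier.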

Additional observations from a re-analysis of the deposited data

How the results depend on the processing

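Of the 19 called members, Srsf3, Srsf5, Srsf7, Srsf10, Srsf11, Hnrnpd, Hnrnpm, Hnrnpr, Hnrnpu, Hnrnpul1 and Hnrnpul2 kept direction and call in all 19 alternatives. Rises over all genes numbered 2756 with total counts alone, 1167 with DESeq2, 1148 at an adjusted p below 0.01 and 4568 on log2(TPM + 1), and falls 1301 with total counts alone, 1317 with DESeq2 and 540 on log2(TPM + 1), beside 1776 and 1984. With 1 library left out, rises numbered 1437 to 1590 and falls 1550 to 1807. SR rises numbered 1 at an adjusted p below 0.01 and 5 on log2(TPM + 1), and 1 to 2 with 1 library left out; SR falls numbered 5 whichever library was left out, and the SR median then ran from -0.12 to 0.031. HnRNP rises numbered 17 on log2(TPM + 1) and 6 to 10 with 1 library left out, where the hnRNP median ran from 0.06 to 0.09; that median was 0.12 with total counts alone, 0.20 on log2(TPM + 1) and 0.13 with the length and GC offset. HnRNP falls numbered 1 with RLE or upper quartile factors, total counts alone, no filter, DESeq2, limma-voom, non-robust estimation, an adjusted p below 0.01, the replicate block and the length and GC offset, 0 on log2(TPM + 1), and 1 to 2 with 1 library left out. Reversed values were those of Srsf1 (0.0076), Hnrnpll (0.028) and Hnrnpl (0.11, called higher) on log2(TPM + 1), and Snrpe (0.012) and Thoc7 (0.028) with the length and GC offset; the cause was not tested. Uncalled members also changed sign, Hnrnpk (0.062) on log2(TPM + 1), Hnrnpl (0.026) with total counts alone, Hnrnpab (-0.0022) with the length and GC offset, and Hnrnpab, Srsf6 and Srsf12 with a library left out. Same-numbered libraries did not deviate together (correlations of 0.03, -0.02 and -0.11), and LIP replicate 3 with NL replicate 2 reached 0.13. With 3 libraries a group, such correlations cannot exclude a shared batch, and no pairing is stated. With the replicate block Hnrnpa2b1 and Hnrnpll lost their calls, leaving 9 rises and 1 fall among hnRNPs and the same 7 SR calls. With 3 libraries a group, small differences in the uncalled members could not be resolved.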

Other observations

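Genes of the core spliceosome and of the steps that follow splicing were counted too, beside 14.1% of all tested genes higher and 15.8% lower. Of 40 genes of the core snRNP particles and U2 factors 13 fell (32.5%) and 6 rose (15%) in LIP, and their median log2 fold change was -0.03. The branch-site protein gene Sf3b6 fell by 0.35 and the Sm ring genes Snrpd2, Snrpg and Snrpe by 0.34, 0.34 and 0.29, with edgeR adjusted p of 5.87e-11, 3.13e-10, 5.28e-10 and 7.71e-08. Snrpg and Snrpe were not called with the length offset or the length and GC offset, while Sf3b6 and Snrpd2 were. On total counts alone 11 genes of that list rose and 9 fell, and on log2(TPM + 1) 19 rose and 5 fell. With the length offset 6 rose and 8 fell, and the median of the list was 0.03. With the length and GC offset 5 rose and 8 fell, and the median was 0.02. Of 15 genes of nonsense-mediated decay and the exon junction complex 4 fell (26.7%) and 2 rose (13.3%). Magoh, a core subunit of the exon junction complex, fell by 0.30, Upf3b by 0.19 and Upf2 by 0.17, and Upf1, the central helicase of the pathway, rose by 0.12, with edgeR adjusted p of 2.00e-08, 0.00268, 0.00272 and 0.0101. The other calls, Magohb (-0.26) and Upf3a (0.18), were named after their values were seen. Without NL replicate 1 the calls of Upf1, Upf2, Upf3a and Magohb were lost, and the list then had 2 falls and 1 rise, the rise being another gene; Upf1 and Magohb were also lost without LIP replicate 2, Upf2 without LIP replicate 3 and Magohb without NL replicate 3. Magoh was not called with the length and GC offset, and Upf1 with neither offset. Of 13 tested mRNA export genes 3 fell by edgeR (23.1%), Thoc7 by 0.23, Sarnp by 0.19 and Thoc1 by 0.18, while 1 fell with the length offset, 0 with the length and GC offset, and 5 rose on log2(TPM + 1).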
